A study of Mus musculus with 32 samples.

Results

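The genes described here encode parts of the actin contractile apparatus and proteins that bind actin filaments: Acta2, Tagln, Cald1, Cnn1, Cnn2, Tpm1, Tpm2, Myl9 and Flna. They were chosen by name, as the rows of a table of raw counts per gene whose Ensembl identifier belongs to one of these symbols, and 8 of the 9 genes were found among 12451 genes in all. Counts of Cnn1 were not analysed here, and only its promoter sequence was read. Of the 8 genes, Acta2, Cald1, Cnn2, Tpm1, Tpm2 and Flna had enough counts to be tested at each time, Tagln passed the filter on low counts only when all wells were fitted together, and Myl9 passed in no fit.

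The counts came from YUMM3.3 cells, an established mouse melanoma cell line grown in culture, and from BRB-seq, a 3′ tag method in which the RNA of each well is barcoded before pooling. The study asked how Activin-A, a ligand of the TGF-β family, and interferon-γ (IFN-γ) change gene expression in these tumor cells without other cell types, alone and together. Cells were left untreated (labelled NT), or were given Activin-A (40 ng/ml), IFN-γ (20 ng/ml), or both factors at these doses, and were collected after 4 hrs or 12 hrs, in 4 wells for each of the 8 groups. The dose of Activin-A given here is that of the study's methods for this experiment, and figure legends of the study give a higher one for these cells. The 32 wells are wells of 1 cell line, no label states that they were separate cultures beyond that, and p-values therefore measure the spread between wells.

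Actin filaments pull when myosin walks along them, and in smooth muscle cells, pericytes and activated fibroblasts this machinery contains a dedicated set of proteins. Acta2 encodes α-smooth muscle actin, the filament itself, and calponins, caldesmon and tropomyosins lie along the filament and set how myosin can reach it. TGF-β ligands are known to raise many of these genes in fibroblasts through SMAD proteins and through serum response factor with its actin-sensing cofactors, whereas IFN-γ is known to lower smooth muscle actin and collagen in such cells.

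A well held 654539 to 1455074 counts (median 988019.5), and all levels below are CPM, counts scaled to the library size after TMM normalization over the 32 wells. Of the genes read to check the labels, Pmepa1, a target of Activin-type signaling, was higher in all wells with Activin-A than in untreated wells at both times, as were Irf1, Gbp2 and Socs1 with IFN-γ. Of 2 other targets of Activin-type signaling, Smad7 (0.86, adjusted p = 0.000458 in edgeR) and Skil (0.79, adjusted p = 0.0411) passed as higher with Activin-A alone at 4 hrs and did not pass at 12 hrs (0.61, adjusted p = 0.0547, and 0.78, adjusted p = 0.0988). Over IFN-γ, Skil passed at 4 hrs (0.93, adjusted p = 0.0407) and Smad7 did not (0.34, adjusted p = 0.546), and at 12 hrs neither did, while Pmepa1 passed in each of these comparisons. Within groups, the wells differed by 1.16 to 2.89 in chi-squared per gene and degree of freedom, and all pairs above 1.54 included replicate 1 of Activin-A at 4 hrs, the deepest library. Tests of Acta2, Cald1, Cnn2, Tpm1 and Flna that use that well and are described below are given with and without it, except the interactions. All 8 markers of melanocytes in the fixed list were measured, at a sum of 326 to 451 CPM per well. Of 8 mural and smooth muscle markers Pdgfrb and Mcam were measured, at a sum of 7.35 to 36.1 CPM, and Myh11, Des, Actg2, Rgs5, Notch3 and Kcnj8 were not analysed here. Leukocyte markers summed to 2.94 to 26.0 CPM (3 of 5 measured), epithelial markers to 0 to 2.45 CPM (1 of 5), and none of the 3 endothelial markers was analysed. In such bulk samples, fewer cells of a type and less RNA per cell cannot be told apart.

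Acta2 rose with Activin-A at 12 hrs but did not pass the test at 4 hrs, and the increase at 12 hrs was found without and with IFN-γ. At 4 hrs, the untreated wells held 398.2, 411.8, 361.2 and 406.6 CPM of Acta2. With Activin-A at 4 hrs they held 467.2, 479.0, 423.9 and 413.6 CPM. The wells with Activin-A were thus all above the untreated wells, but by as little as the gap between 411.8 and 413.6 CPM.

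At 12 hrs, the untreated wells held 442.2, 406.9, 440.3 and 491.0 CPM of Acta2, with a mean of 445 ± 34.6 CPM (SD, n = 4). With Activin-A at 12 hrs they held 718.9, 736.2, 686.8 and 672.8 CPM, with a mean of 704 ± 29.0 CPM (SD, n = 4). The lowest well with Activin-A was far above the highest untreated well.

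IFN-γ alone gave 406.5, 366.2, 446.8 and 423.4 CPM of Acta2 at 4 hrs, which overlapped the untreated wells. At 12 hrs it gave 338.4, 383.7, 365.1 and 366.6 CPM, below each of the untreated wells. With both factors, Acta2 was at 474.3, 475.8, 444.8 and 443.8 CPM at 4 hrs and at 698.0, 657.1, 664.9 and 712.0 CPM at 12 hrs, where the wells overlapped those with Activin-A alone and lay above all wells with IFN-γ alone.

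**Figure D1:**
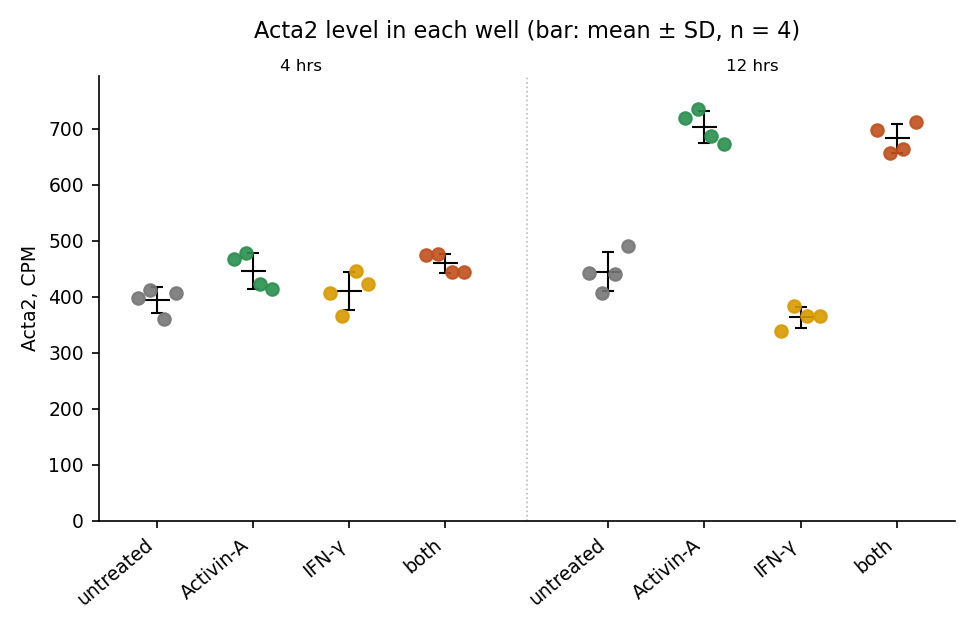
Acta2 level in CPM (vertical axis, from 0) in each of the 32 wells by treatment, at 4 hrs (left) and 12 hrs (right), where points are wells and bars are the mean ± SD of 4 wells. At 12 hrs, the 8 wells that received Activin-A, alone or with IFN-γ, lie between 657.1 and 736.2 CPM, and the 24 other wells of the plot lie at 491.0 CPM or below.

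Each adjusted p below comes from the quasi-likelihood test of edgeR, adjusted over all genes tested by the Benjamini-Hochberg method. The log2 fold change of Acta2 with Activin-A was 0.18 ± 0.07 (SE, n = 4 wells a group, adjusted p = 0.288) at 4 hrs. It was 0.66 ± 0.06 (SE, adjusted p = 7.09e-16) at 12 hrs, a 1.58-fold difference. In the presence of IFN-γ, the effect of Activin-A was 0.17 ± 0.07 (SE, adjusted p = 0.413) at 4 hrs and 0.91 ± 0.06 (SE, adjusted p = 3.38e-22) at 12 hrs, which is 1.88-fold. Without replicate 1 of Activin-A at 4 hrs, the effect at 4 hrs was 0.14 (adjusted p = 0.505).

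The timing was tested directly as the effect of Activin-A at 12 hrs minus that at 4 hrs, in a fit of all 32 wells. For Acta2 this difference was 0.50 ± 0.09 on the log2 scale (SE, 95% interval 0.31 to 0.68, adjusted p = 0.00751). It was the gene with the smallest p of 9332 genes tested, and only Bgn, which encodes the matrix proteoglycan biglycan, also passed, at 0.49. With IFN-γ present the difference was 0.74 ± 0.09 (SE, 95% interval 0.55 to 0.92, adjusted p = 1.51e-07), and Acta2 again ranked first, of 9 genes that passed. The call without IFN-γ was lost when replicate 2 of the untreated cells at 4 hrs (adjusted p = 0.0545) or replicate 3 of Activin-A at 4 hrs (adjusted p = 0.051) was left out, at a difference of 0.47 in both cases, and without replicate 1 of Activin-A at 4 hrs it was 0.52 (adjusted p = 0.000852). An increase of Acta2 from 4 hrs to 12 hrs was seen in cells with Activin-A (0.66 ± 0.06, adjusted p = 6.13e-14) and with both factors (0.57 ± 0.06, adjusted p = 2.6e-11), while untreated cells (0.17, adjusted p = 0.146) and cells with IFN-γ (-0.17, adjusted p = 0.129) did not pass the test.

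With IFN-γ alone, Acta2 differed by 0.06 ± 0.07 on the log2 scale at 4 hrs (adjusted p = 0.819). At 12 hrs it fell by 0.29 ± 0.07 (SE, adjusted p = 0.000623). When IFN-γ was added to Activin-A, Acta2 changed by 0.05 at 4 hrs (adjusted p = 0.805; 0.08 and 0.672 without replicate 1 of Activin-A) and by -0.04 at 12 hrs (95% interval -0.16 to 0.07, adjusted p = 0.776). The difference between the 2 effects of Activin-A at 12 hrs, with and without IFN-γ, was 0.24 ± 0.09 and did not pass (adjusted p = 0.477). The IFN-γ effect at 12 hrs minus that at 4 hrs was -0.34 ± 0.10 (adjusted p = 0.106), and it passed (adjusted p = 0.0398) when replicate 2 of IFN-γ at 4 hrs was left out.

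Genes listed as markers of other cell types were read beside these results. The mural sum holds only Mcam and Pdgfrb, and whether melanoma cells or mural cells made them was not tested. The mural markers summed to 12.0 to 23.1 CPM in untreated wells and to 24.5 to 36.1 CPM with Activin-A at 4 hrs, when Acta2 did not pass the test, and to 16.5 to 22.2 CPM and 17.6 to 33.7 CPM at 12 hrs, when it did. Mcam, the gene of the mural list with enough counts to be tested, passed as higher with Activin-A at 4 hrs (0.99, adjusted p = 0.0393). Cald1 was called higher in the same comparison. At 4 hrs the mural sum was 7.349 to 17.14 CPM with IFN-γ alone and 17.14 to 26.35 CPM with both factors. Cald1 and Cnn2 were called higher between these groups, and Mcam did not pass (0.69). The part of the mural markers in these calls at 4 hrs was not tested. With IFN-γ alone at 12 hrs the mural sum was 9.145 to 15.77 CPM, below all untreated wells, as Acta2 and Tpm1 were, and its part in these results was not tested. With both factors at 12 hrs it was 13.53 to 16.6 CPM, where Acta2 was high. Of 7 fibroblast markers 5 were measured (Lum and Thy1 were not analysed here). At 12 hrs their sum was 268 to 308.6 CPM in untreated wells, 308.5 to 351.9 CPM with Activin-A, 148 to 185.4 CPM with IFN-γ and 174.8 to 187.1 CPM with both factors. The sum was thus lower with IFN-γ alone and, with ranges that met, higher with Activin-A alone, as Acta2 was in both cases, and the part of these markers in either result was not tested. It was low in the wells with both factors, where Acta2 was high. Most of the sum came from Col3a1, a fibrillar collagen gene, which did not pass the test with Activin-A at 12 hrs (0.22, adjusted p = 0.139). Col3a1 fell by 0.88 with IFN-γ alone at 12 hrs (adjusted p = 6.69e-14), the only 1 of 3 tested fibroblast markers that passed, and its IFN-γ effect at 12 hrs minus that at 4 hrs was -0.69 (adjusted p = 0.00105). With both factors against Activin-A at 12 hrs, Col3a1 (-0.90, adjusted p = 7.55e-15) and Col1a1 (-0.80, adjusted p = 0.000434) were lower, as was Mcam (-1.01, adjusted p = 0.0267), in the comparison in which Tpm1 was called lower and Acta2 did not pass. From 4 hrs to 12 hrs in cells with Activin-A, in which Acta2 increased, the fibroblast sum was 237.1 to 287.7 CPM at 4 hrs and 308.5 to 351.9 CPM at 12 hrs, without overlap, and Col3a1 passed as higher (0.41, adjusted p = 0.00052). With both factors, where Acta2 also increased, the sum was lower at 12 hrs than the 203 to 233.3 CPM at 4 hrs. In untreated cells, where Acta2 did not pass, the sum was higher at 12 hrs than the 223.2 to 265.7 CPM at 4 hrs. In cells with IFN-γ, where Tpm1 was called lower, the sum was lower at 12 hrs than the 210.2 to 252 CPM at 4 hrs. The part of these markers in the changes between the times was not tested.

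The sequence before the start of Acta2 is shown because serum response factor binds the CArG box, a short element with an A/T-rich core, and smooth muscle genes are known for it. In RefSeq's annotation of GRCm38.p6 the 250 bases before the start lie at chr19:34255374-34255623 on the minus strand. Capitals mark 2 stretches that differ from the CArG box by 1 base, at positions -84 to -75 and -34 to -25, counted from the start with no position 0.

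Acta2: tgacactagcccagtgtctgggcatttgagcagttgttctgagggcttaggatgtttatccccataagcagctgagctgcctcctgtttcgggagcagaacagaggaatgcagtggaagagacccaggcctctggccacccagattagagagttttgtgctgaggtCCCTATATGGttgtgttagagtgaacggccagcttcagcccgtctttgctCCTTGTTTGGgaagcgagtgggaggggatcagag

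Activin-A alone at 12 hrs raised 5 of the 6 genes tested, Acta2, Cald1, Cnn2, Tpm1 and Flna, where 1.25% of all genes tested were called higher. At 4 hrs it raised only Cald1 (1.05% of all genes), although the wells of Acta2, Cald1, Tpm1, Flna and, among the genes not tested, Tagln did not overlap between the groups. Non-overlap with Activin-A higher was found for 3.32% of all genes tested at 4 hrs and for 3.61% at 12 hrs, when it held for the same 5 genes that were called and for Tagln. The median log2 fold change of the 6 genes was 0.17 at 4 hrs and 0.38 at 12 hrs, beside a median of 0.00 to 2 decimals over all genes tested at both times. The 6 genes had means of 238 to 1172 CPM over all wells. The shares of all genes given here and below were not matched for level.

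When IFN-γ was present, Activin-A raised Cald1 and Cnn2 at 4 hrs (0.558% of all genes called higher) and Acta2, Cald1, Cnn2, Tpm1 and Flna at 12 hrs (0.457%). Wells were higher without overlap for Cald1, Cnn2 and Tpm1 at 4 hrs (3.06% of all genes) and for these 5 genes and Tagln at 12 hrs (2.34%). The interaction of the factors, the effect of Activin-A with IFN-γ minus that without, was called for 0 of the 6 genes at either time by edgeR. At an unadjusted p under 0.05 the count was 0 at 4 hrs and 2 at 12 hrs (Acta2 and Cald1), DESeq2 called 0 at both times, and of all genes 0% were called at 4 hrs and 0.0111% at 12 hrs.

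IFN-γ alone changed 0 of the 6 genes at 4 hrs in edgeR, with 0 at an unadjusted p under 0.05 and 0 in DESeq2, while 5.06% of all genes were called in either direction. At 12 hrs it changed 3 of the 6, lowering Acta2 and Tpm1 (2.82% of all genes called lower) and raising Cnn2 (6.43% called higher, 9.25% in either direction). Added to Activin-A, IFN-γ raised Cnn2 at 4 hrs (4.41% of all genes called higher) and lowered Tpm1 at 12 hrs (3.44% called lower). Wells with IFN-γ alone were lower than untreated wells without overlap for 3.35% of all genes tested at 4 hrs and 4.63% at 12 hrs. They were higher without overlap for 7.88% at 12 hrs. At 4 hrs, wells with both factors were higher than those with Activin-A alone without overlap for 6.19%.

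**Figure D2:**
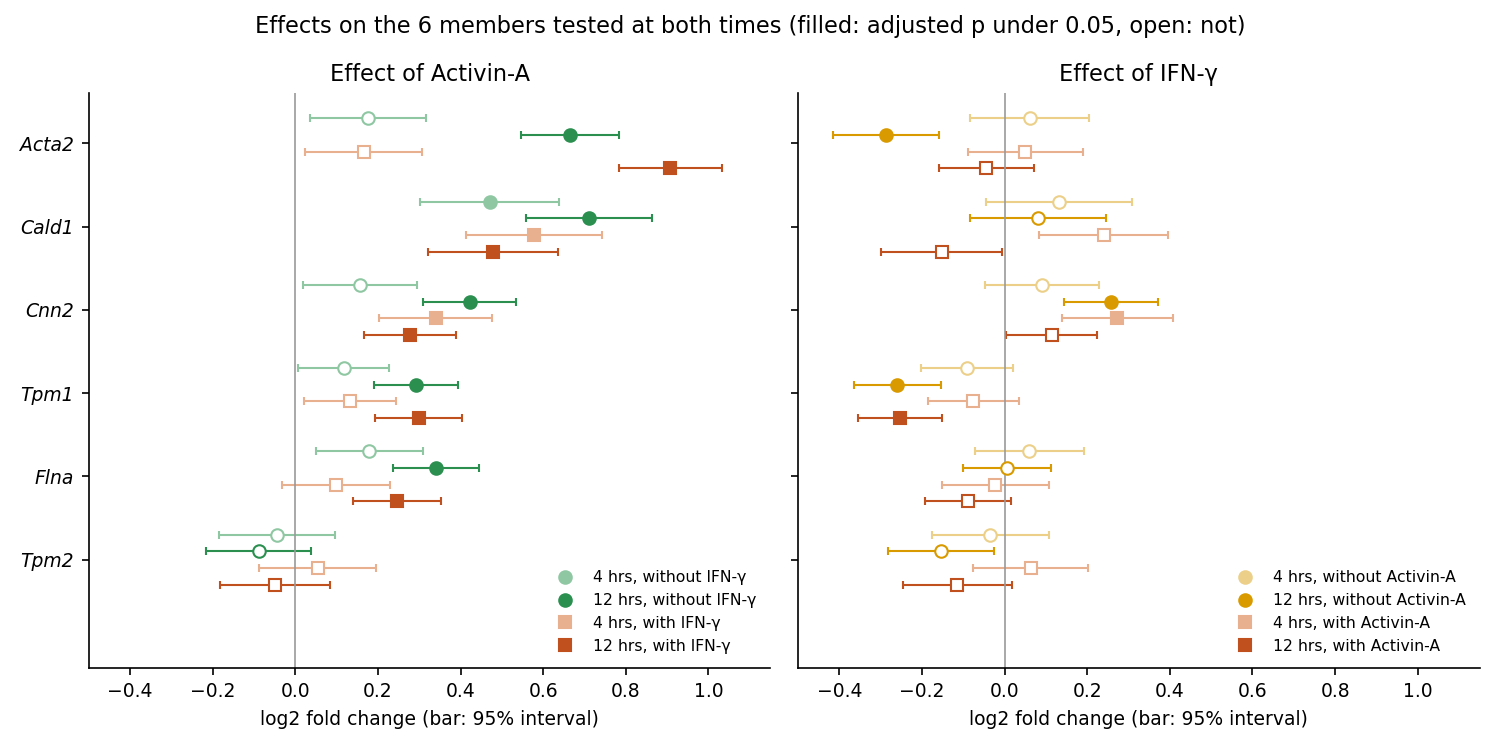
Log2 fold change (horizontal axis, bars are 95% intervals) of the 6 genes tested at both times, for the effect of Activin-A (left) and of IFN-γ (right), each at 4 hrs and 12 hrs and without or with the other factor, where filled points have an adjusted p under 0.05. Under Activin-A, the points at 12 hrs are filled for all genes but Tpm2, and Acta2 shows the widest gap between 4 hrs (0.18 and 0.17) and 12 hrs (0.66 and 0.91).

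Between the times, edgeR called 0 of 7 genes in untreated cells (4.9% of all genes in either direction), with 3 at an unadjusted p under 0.05 (Acta2, Cnn2 and Tpm2) and 0 in DESeq2. In cells with Activin-A, Acta2, Cald1, Cnn2 and Flna were higher at 12 hrs than at 4 hrs (3.33% of all genes higher), and with both factors Acta2, Cnn2 and Flna were (3.69%). Without replicate 1 of Activin-A at 4 hrs, the increases with Activin-A were 0.69 for Acta2 (adjusted p = 1.21e-14), 0.35 for Cald1 (0.00166), 0.51 for Cnn2 (1.01e-09) and 0.28 for Flna (0.000494). In cells with IFN-γ, Cnn2 was higher (4.84% of all genes higher) and Tpm1 lower (3.57% lower) at 12 hrs. The increase of Flna with both factors was lost without replicate 1 (adjusted p = 0.137) or 4 (0.0838) of these cells at 4 hrs or replicate 2 at 12 hrs (0.0852), and the decrease of Tpm1 without replicate 2 of IFN-γ at 12 hrs (0.0519). Cnn2 in untreated cells passed without replicate 4 at 4 hrs (adjusted p = 0.0373), Acta2 (0.0474) and Tagln (0.0202) in cells with IFN-γ passed as lower at 12 hrs without replicate 2 at 4 hrs, and Tagln with both factors passed as higher without replicate 4 at 4 hrs (0.0425). Tagln passed the filter over all wells through wells with Activin-A, where its highest CPM lay (18.4, 12.8, 11.4 and 10.9). Nothing is therefore read from its tests between the times.

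The effect of Activin-A itself differed between the times for 1 of 7 genes, Acta2, without IFN-γ (0.0214% of all genes higher) and with it (0.0429%). For the other genes the difference without IFN-γ was between -0.34 (Tagln) and 0.27 (Cnn2), and Cald1 (0.25), Cnn2, Tpm1 (0.18) and Flna (0.17) had 95% intervals above 0 but adjusted p of 0.793, 0.726, 0.747 and 0.816. Without replicate 1 of Activin-A at 4 hrs these 4 differences were 0.28, 0.31, 0.20 and 0.18, with adjusted p of 0.655, 0.269, 0.606 and 0.747. With IFN-γ present, the difference was 3.33 ± 0.89 for Tagln (SE, 95% interval 1.58 to 5.08, adjusted p = 0.148), which rests on few counts, and 0.16 for Tpm1 (95% interval 0.01 to 0.31, adjusted p = 0.72). Tagln passed the filter through wells with Activin-A, the factor tested, so that nothing is read from any of its differences between the times. The intervals for Flna (0.15, adjusted p = 0.807), Cnn2 (-0.06, 0.942), Cald1 (-0.10, 0.9225) and Tpm2 (-0.11, 0.915) included 0. The effect of IFN-γ differed between the times for 0 of 7 genes in edgeR (0.579% of all genes in either direction), with 3 at an unadjusted p under 0.05 (Acta2, Tagln and Tpm1) and 0 in DESeq2.

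**Figure D3:**
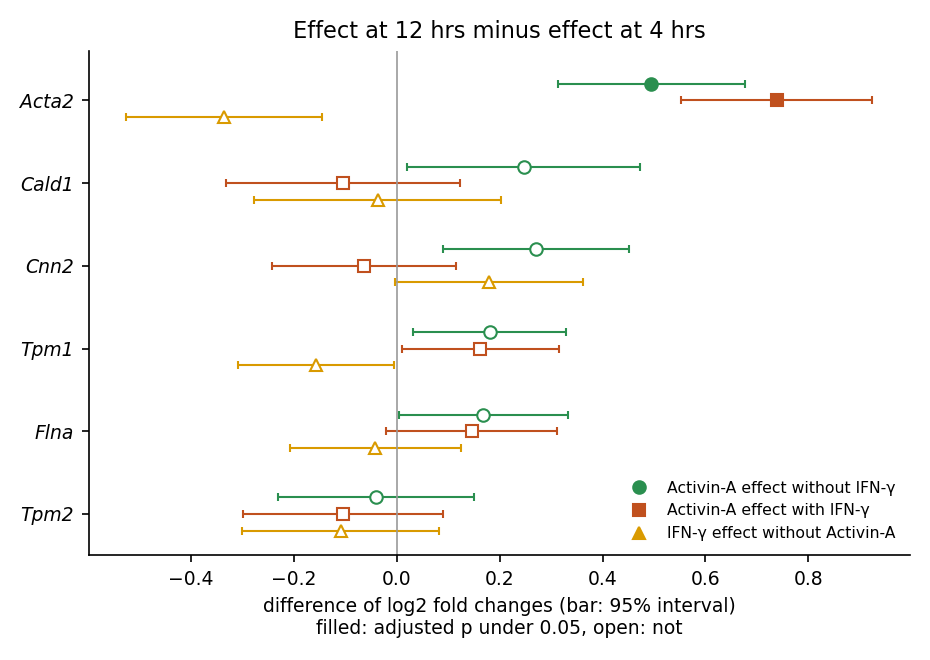
Difference between the effect at 12 hrs and the effect at 4 hrs (horizontal axis, log2 scale, bars are 95% intervals) for the 6 genes tested at both times, for Activin-A without and with IFN-γ and for IFN-γ. The 2 filled points, with an adjusted p under 0.05, are those of Acta2 under Activin-A, at 0.50 and 0.74.

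Cald1 encodes caldesmon, which binds actin and tropomyosin and holds back myosin. It was the only gene of the set called with Activin-A alone at 4 hrs. The untreated wells at 4 hrs held 182.0, 166.5, 175.6 and 200.8 CPM, and the wells with Activin-A held 267.2, 225.0, 255.6 and 244.9 CPM. IFN-γ alone gave 197.1, 173.5, 207.2 and 213.4 CPM, and both factors gave 278.3, 311.8, 301.9 and 286.9 CPM. All wells with Activin-A, alone or with IFN-γ, were above all wells without it at this time.

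At 12 hrs, Cald1 was at 202.5, 196.3, 186.0 and 173.0 CPM in untreated wells and at 316.5, 316.3, 342.4 and 271.3 CPM with Activin-A. IFN-γ gave 208.6, 195.5, 207.4 and 197.9 CPM, and both factors gave 319.6, 270.5, 271.1 and 263.4 CPM. As at 4 hrs, the wells with and without Activin-A did not overlap.

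The log2 fold change of Cald1 with Activin-A was 0.47 ± 0.09 (SE, adjusted p = 0.000288) at 4 hrs, and 0.43 (adjusted p = 0.00136) without replicate 1 of Activin-A. It was 0.71 ± 0.08 (SE, adjusted p = 5.71e-12) at 12 hrs. In the presence of IFN-γ it was 0.58 ± 0.08 (SE, adjusted p = 4.27e-06) at 4 hrs and 0.48 ± 0.08 (SE, adjusted p = 1.97e-05) at 12 hrs. IFN-γ alone did not change Cald1 by the test at 4 hrs (0.13, adjusted p = 0.585) or 12 hrs (0.08, adjusted p = 0.688). At 4 hrs Cald1 was higher in all wells with both factors than in those with Activin-A alone, at 0.24 (adjusted p = 0.0607), which passed at 0.28 (adjusted p = 0.0235) without replicate 1 of Activin-A and in the fit of all 32 wells (adjusted p = 0.0443).

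Cnn2 encodes calponin 2, the calponin that is also made outside smooth muscle and that binds and stabilizes actin filaments. It was the only gene of the set raised by each factor alone at 12 hrs. In untreated wells it stood at 696.6, 668.6, 685.8 and 687.4 CPM at 12 hrs, and Activin-A gave 984.8, 836.8, 878.2 and 978.8 CPM. IFN-γ gave 900.0, 763.1, 772.4 and 846.3 CPM, and both factors gave 1047, 987.3, 922.7 and 1021 CPM. The untreated wells were the lowest and did not overlap the other groups, whereas the wells with both factors overlapped those with Activin-A alone.

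At 12 hrs, the log2 fold change of Cnn2 was 0.42 ± 0.06 (SE, adjusted p = 1.74e-08) with Activin-A and 0.26 ± 0.06 (SE, adjusted p = 0.000499) with IFN-γ, and Activin-A added 0.28 ± 0.06 (SE, adjusted p = 0.00103) in the presence of IFN-γ. At 4 hrs, the untreated wells (566.1, 618.7, 551.1 and 655.4 CPM) overlapped those with Activin-A (725.2, 625.9, 631.0 and 667.5 CPM) and with IFN-γ (581.6, 597.2, 614.4 and 727.6 CPM), while both factors gave 761.0, 833.7, 782.9 and 826.3 CPM. The wells with both factors were above all others at 4 hrs, by 0.34 ± 0.07 over IFN-γ (adjusted p = 0.00256) and by 0.27 ± 0.07 over Activin-A (adjusted p = 0.00543). Activin-A alone at 4 hrs gave 0.16 ± 0.07 (adjusted p = 0.354), and the interaction was 0.18 ± 0.10 (adjusted p = 0.922). Without replicate 1 of Activin-A, the effect of Activin-A alone was 0.10 (adjusted p = 0.636) and the difference of both factors from Activin-A was 0.32 (adjusted p = 0.000122).

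The promoter of Cnn2 was 1 of the 2 among these genes that held a complete CArG box, in capitals here at -56 to -47. The 250 bases before its start lie at chr10:79988350-79988599 on the plus strand of GRCm38.p6 in RefSeq's annotation.

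Cnn2: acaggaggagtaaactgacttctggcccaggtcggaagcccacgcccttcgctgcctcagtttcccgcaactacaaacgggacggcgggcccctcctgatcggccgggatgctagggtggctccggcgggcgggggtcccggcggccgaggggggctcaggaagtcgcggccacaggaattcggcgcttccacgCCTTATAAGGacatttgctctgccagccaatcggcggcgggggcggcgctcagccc

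Tpm1 and Tpm2 encode α- and β-tropomyosin, coiled-coil proteins that lie end to end along the actin filament. They did not move alike. Tpm1 was at 1067, 1120, 1192 and 1175 CPM in untreated wells at 12 hrs and at 1450, 1384, 1422 and 1318 CPM with Activin-A. With IFN-γ it was at 930.3, 910.5, 938.8 and 1018 CPM, and with both factors at 1244, 1071, 1172 and 1192 CPM. Activin-A alone was above, and IFN-γ alone below, all untreated wells, and the wells with both factors overlapped the untreated ones.

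The log2 fold change of Tpm1 at 12 hrs was 0.29 ± 0.05 (SE, adjusted p = 2.66e-05) with Activin-A and -0.26 ± 0.05 (SE, adjusted p = 0.00011) with IFN-γ. In the presence of the other factor the effects were 0.30 ± 0.05 for Activin-A (adjusted p = 8.26e-05) and -0.25 ± 0.05 for IFN-γ (adjusted p = 0.000124), and the interaction was 0.01 (95% interval -0.14 to 0.15, adjusted p = 0.996). At 4 hrs, the untreated wells (1167, 1160, 1164 and 1188 CPM) lay below those with Activin-A (1320, 1244, 1267 and 1227 CPM) and above those with IFN-γ (1092, 1045, 1113 and 1114 CPM). Neither difference passed the test at 4 hrs, with 0.12 (adjusted p = 0.407) for Activin-A and -0.09 (adjusted p = 0.535) for IFN-γ, and without replicate 1 of Activin-A its effect was 0.09 (adjusted p = 0.569).

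The 250 bases before the start of Tpm1 lie at chr9:67049214-67049463 on the minus strand of GRCm38.p6. They are shown because Tpm1, like Acta2, fell with IFN-γ alone and rose with Activin-A alone at 12 hrs. Whether these sequences play a part in the changes was not tested. Capitals mark 2 stretches that differ from the CArG box by 1 base, at -221 to -212 and -80 to -71.

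Tpm1: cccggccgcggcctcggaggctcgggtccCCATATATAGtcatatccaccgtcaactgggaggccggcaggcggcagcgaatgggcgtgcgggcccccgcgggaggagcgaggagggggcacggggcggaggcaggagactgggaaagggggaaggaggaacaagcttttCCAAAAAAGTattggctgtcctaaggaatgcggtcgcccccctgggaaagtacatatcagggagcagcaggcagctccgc

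Tpm2 was called in none of the comparisons in edgeR. Its group means ranged from 401 CPM with Activin-A at 4 hrs to 467 CPM in untreated cells at 12 hrs, a ratio of 1.16. At 12 hrs the untreated wells held 473.9, 449.9, 466.8 and 479.3 CPM, Activin-A gave 452.2, 451.8, 430.3 and 423.7 CPM, and IFN-γ gave 400.3, 406.7, 447.2 and 425.6 CPM. Only the wells with IFN-γ were all below the untreated ones, as for 4.63% of all genes tested. The log2 fold change was -0.15 ± 0.07 (SE, adjusted p = 0.152), which passed when library totals were used without TMM (adjusted p = 0.0309). The effect of Activin-A on Tpm2 at 12 hrs was -0.09 (95% interval -0.22 to 0.04, adjusted p = 0.672).

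Flna encodes filamin A, which crosslinks actin filaments and ties them to integrins at the membrane. It rose with Activin-A at 12 hrs and did not respond to IFN-γ by the test. The untreated wells at 12 hrs held 748.4, 779.7, 770.6 and 792.7 CPM and those with Activin-A held 985.6, 986.7, 986.8 and 958.9 CPM. IFN-γ gave 732.6, 766.3, 786.4 and 815.5 CPM, and both factors gave 913.7, 969.3, 876.2 and 925.2 CPM. The wells with Activin-A did not overlap those without it.

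The log2 fold change of Flna with Activin-A at 12 hrs was 0.34 ± 0.05 (SE, adjusted p = 1.16e-06) without and 0.25 ± 0.05 (SE, adjusted p = 0.00313) with IFN-γ. IFN-γ alone gave 0.01 at 12 hrs (95% interval -0.10 to 0.11, adjusted p = 0.977). At 4 hrs, Flna stood at 751.6, 676.4, 705.9 and 742.3 CPM in untreated wells and at 833.4, 846.3, 782.6 and 790.9 CPM with Activin-A, which did not overlap but did not pass the test (0.18, adjusted p = 0.202), nor without replicate 1 of Activin-A (0.16, adjusted p = 0.276). At that time IFN-γ gave 698.2 to 842.4 CPM and both factors 726.3 to 885.7 CPM, which overlapped.

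Tagln encodes transgelin (SM22α), an actin-bundling protein and early mark of smooth muscle differentiation, and it was near the limit of detection. Counts rather than CPM are given for it. Untreated wells held 0, 3, 4 and 6 counts at 4 hrs and 4, 7, 4 and 2 at 12 hrs, and wells with Activin-A held 10, 12, 9 and 12 at 4 hrs and 12, 10, 11 and 7 at 12 hrs. IFN-γ gave 4, 1, 5 and 8 counts at 4 hrs and 0, 2, 2 and 0 at 12 hrs, and both factors gave 2, 3, 2 and 8 at 4 hrs and 5, 8, 6 and 11 at 12 hrs. With Activin-A alone, the CPM were above those of all untreated wells at both times, and at 12 hrs those with IFN-γ were below.

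Summed over 4 wells, Tagln was 3.07 times higher with Activin-A than in untreated cells at 4 hrs (43 against 13 counts, exact 95% interval 1.62 to 6.22) and 2.42 times higher at 12 hrs (40 against 17, 1.34 to 4.56). With both factors it was 8.29 times the level with IFN-γ alone at 12 hrs (30 against 4 counts, 2.92 to 32.4), and 0.742 times that level at 4 hrs (15 against 18, 0.348 to 1.56). These intervals cover counting error only. When genes with few counts were kept in edgeR's test, Activin-A alone gave an adjusted p of 0.0591 at 4 hrs and 0.127 at 12 hrs, and its effect with IFN-γ at 12 hrs passed (2.91 ± 0.62 on the log2 scale, adjusted p = 0.000985). Tagln also passed then as lower with both factors than with Activin-A alone at 4 hrs (-1.46, adjusted p = 0.0384), where the ratio was 0.359 (15 against 43 counts, exact 95% interval 0.186 to 0.66). In the GRCm38 annotation Tagln overlaps Pcsk7 on the opposite strand, and without a stated strand setting reads of the 2 genes cannot be told apart.

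Myl9, which encodes the regulatory light chain of smooth muscle and nonmuscle myosin, had 0 to 7 counts in every well. Over 4 wells it summed to 13 counts for untreated cells, 12 for Activin-A, 7 for IFN-γ and 16 for both factors at 4 hrs, and to 17, 20, 4 and 9 counts at 12 hrs. With IFN-γ at 12 hrs it was 0.251 times the untreated level (exact 95% interval 0.0615 to 0.77), and with few-count genes kept edgeR gave an adjusted p of 0.114. For Activin-A at 12 hrs the ratio was 1.21 with an interval of 0.603 to 2.46, so that a change of the size seen for Acta2 was not detectable at this depth.

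**Figure D4:**
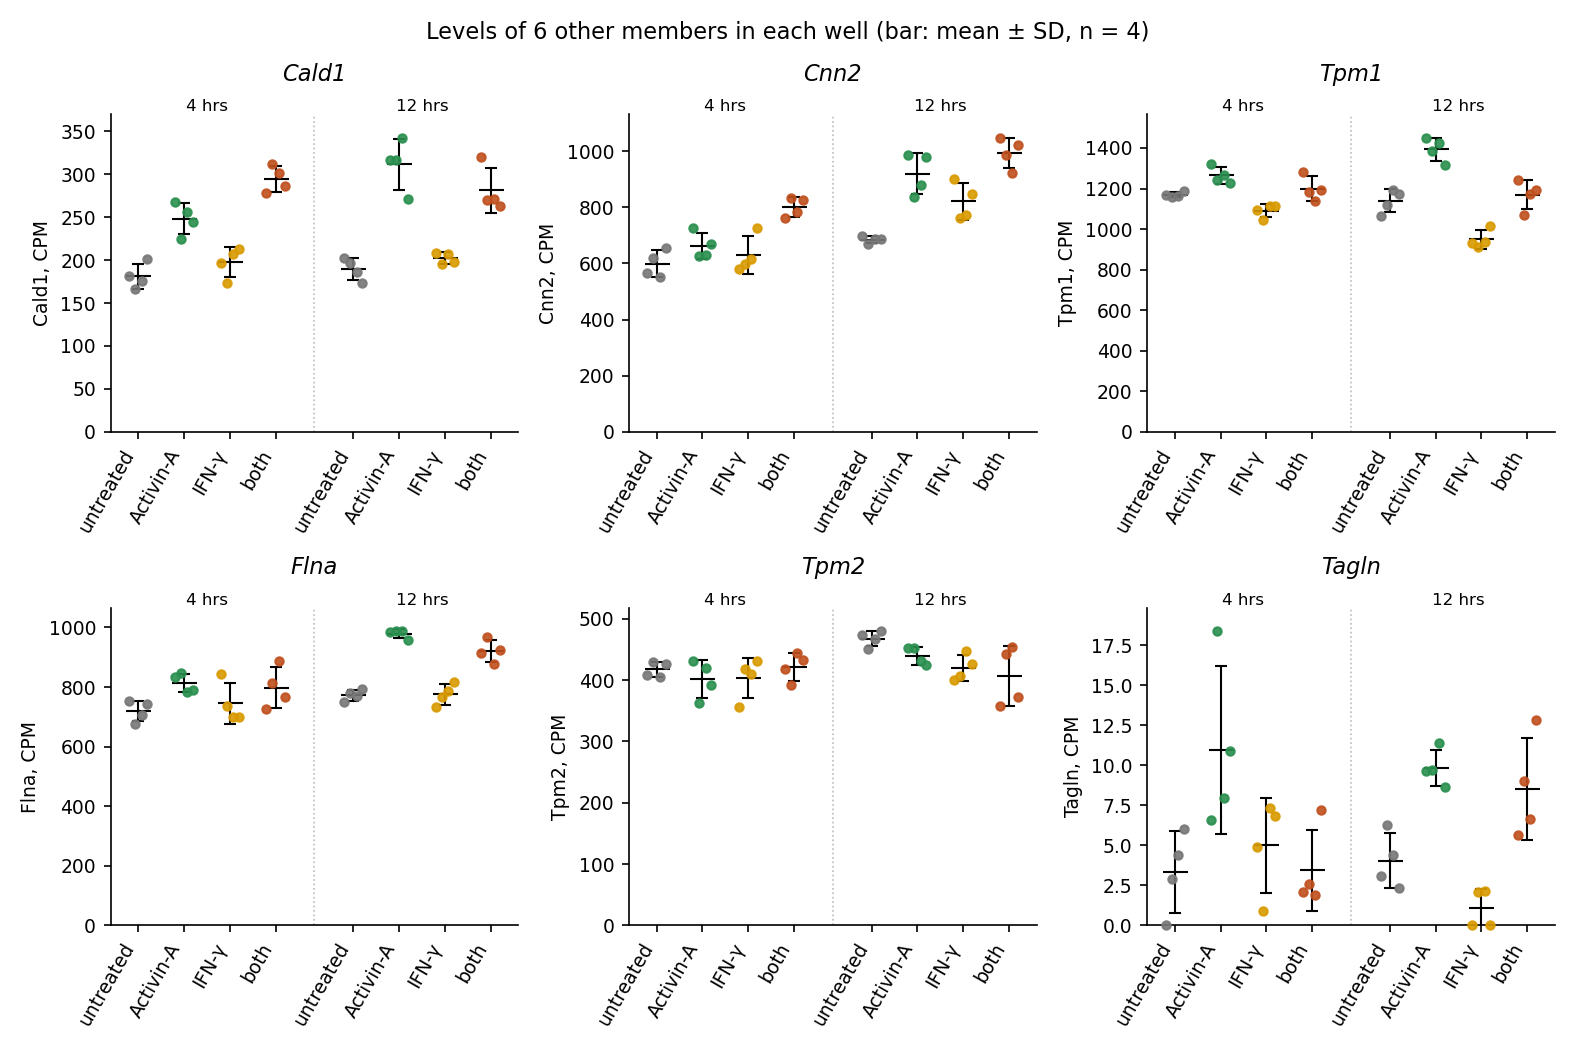
Levels in CPM (vertical axes, each from 0 and each with its own scale) of Cald1, Cnn2, Tpm1, Flna, Tpm2 and Tagln in each of the 32 wells, at 4 hrs (left in each panel) and 12 hrs (right), where points are wells and bars are the mean ± SD of 4 wells. Cald1 separates wells with and without Activin-A at both times, Tpm1 is lowest with IFN-γ at 12 hrs, and the group means of Tpm2 stay between 401 and 467 CPM.

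Across the 8 group means, the lowest mean of Acta2 was that with IFN-γ at 12 hrs and the highest that with Activin-A at 12 hrs, a ratio of 1.94. Tpm1 had its lowest and highest means in the same groups (ratio 1.47). Cald1 (1.72) and Flna (1.36) ranged from untreated cells at 4 hrs to Activin-A at 12 hrs, and Cnn2 (1.66) from untreated cells at 4 hrs to both factors at 12 hrs. In log2 CPM over the 8 group means, Acta2 had a Pearson's r of 0.94 with Flna, 0.78 with Cald1, 0.75 with Cnn2, 0.68 with Tpm1 and 0.08 with Tpm2. These r describe 8 points that share treatments and time. Of the deviations of the 32 wells from their group means, the pair with the highest r was Acta2 and Tpm1 (0.42), and Acta2 and Flna had 0.04.

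Of 4022 genes with a mean above 50 CPM, the 5 whose group means were most like those of Acta2 were Aff4 (r = 0.98 over the 8 group means), a subunit of the super elongation complex, Tmsb10 (0.94), which encodes the actin-monomer-binding thymosin β10, Flna (0.94), Rab11b (0.94), a small GTPase of recycling endosomes, and Cflar (0.94), which encodes the caspase-8 regulator c-FLIP. Over the 32 wells, r with Acta2 was 0.50 for Aff4, 0.63 for Tmsb10, 0.83 for Flna, 0.30 for Rab11b and 0.53 for Cflar. Most of the 5 were then no longer among the 5 most like Acta2. Of the 5, Flna was called with Activin-A at 12 hrs and Aff4 (0.23, adjusted p = 0.444), Tmsb10 (0.13, adjusted p = 0.462), Rab11b (0.13, adjusted p = 0.719) and Cflar (0.19, adjusted p = 0.57) were not. The SE was 0.05 for Flna and 0.07 (Tmsb10) to 0.12 (Aff4) for the others, so that small changes were harder to call for these. Among the other genes described here Cald1 ranked 49, Cnn2 64, Tpm1 131 and Tpm2 1517.

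The other genes of the actin system were read from 3 lists. Among contractile companions (actins, myosin chains, other tropomyosins and calponins), 0 of 12 tested were called with Activin-A at 4 hrs in edgeR, with 3 at an unadjusted p under 0.05 and beside 1.05% of all genes higher and 0.591% lower, so that nothing about the list is read from it. At 12 hrs 4 were higher, when 1.25% of all genes were. These were Myh9, the heavy chain of nonmuscle myosin IIA (0.30, adjusted p = 0.000653), Actb, β-actin (0.25, adjusted p = 0.000111), Cnn3, the third calponin (0.23, adjusted p = 0.0424), and Myl12a, a myosin regulatory light chain (0.20, adjusted p = 0.0385). The median log2 fold change of this list was -0.01 at 4 hrs and 0.17 at 12 hrs.

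Among 30 other actin-binding and focal adhesion genes, Activin-A raised 4 and lowered 1 at 4 hrs (1.05% of all genes higher and 0.591% lower), and raised 6 at 12 hrs (1.25% higher). At 4 hrs these included Pdlim5 (0.65, adjusted p = 0.000395) and Pdlim7 (0.44, adjusted p = 0.00212), which encode LIM-domain proteins of the cytoskeleton, and Vcl, vinculin (0.32, adjusted p = 0.0351), while Ezr, the membrane linker ezrin, fell by 0.56 (adjusted p = 0.0256). At 12 hrs they included Pdlim5 (0.66, adjusted p = 4.72e-06), the ezrin relative Msn (0.46, adjusted p = 4.59e-10), Actn1 (0.27, adjusted p = 0.0258), Lasp1 (0.24, adjusted p = 0.0215) and Tmsb4x (0.18, adjusted p = 0.00304). Pdlim5 was thus already higher at 4 hrs, like Cald1. Of 17 regulators of actin and contraction, only Limk2, a kinase that inactivates cofilin, was called with Activin-A at 4 hrs (0.95, adjusted p = 0.0354), beside 1.05% of all genes higher. None of them was called at 12 hrs in edgeR, with 3 at an unadjusted p under 0.05.

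IFN-γ at 12 hrs raised Cnn3 (0.47, adjusted p = 1.51e-08) and Tpm3 (0.25, adjusted p = 0.000851) of the 12 companions and lowered none. Of the 30 actin-binding genes it raised Zyx, Csrp1 and Enah and lowered Fscn1 and Tmsb4x, and of the 17 regulators it raised Rhoc and Rock1. Of all genes 6.43% were called higher and 2.82% lower in this comparison, and nothing about these lists is read from such counts. Over IFN-γ alone at 12 hrs, adding Activin-A raised Actb (0.17, adjusted p = 0.0371), Pdlim5 (0.44, adjusted p = 0.0196) and Msn (0.28, adjusted p = 0.000646) and no regulator, beside 0.457% of all genes higher.

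**Figure D5:**
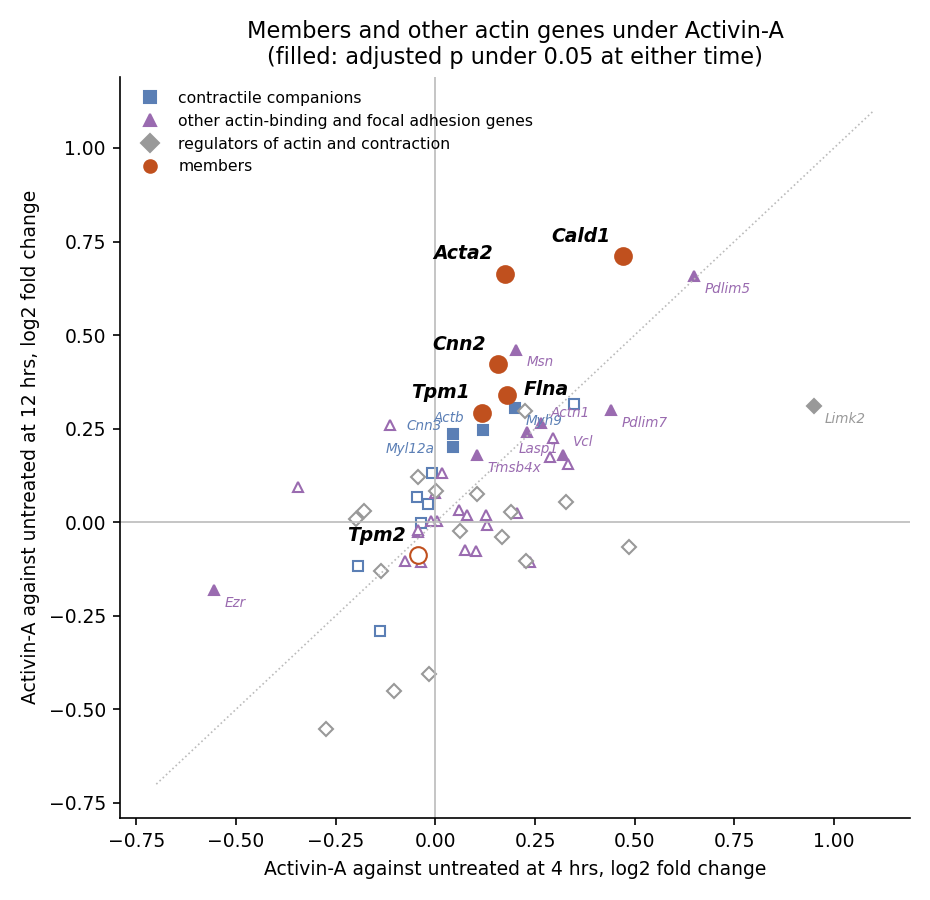
Log2 fold change with Activin-A against untreated cells at 4 hrs (horizontal axis) and at 12 hrs (vertical axis) for the 6 tested genes of the set (circles, named in bold) and for genes of 3 lists of other actin genes, with the dotted line where both are equal and filled symbols for an adjusted p under 0.05 at either time. Acta2 lies farther above the line (0.18 and 0.66) than Cald1 (0.47 and 0.71), while Pdlim5 (0.65 and 0.66) lies on it.

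The promoters of these genes were searched for motifs in windows of 300 bases, 250 before and 50 after the start, taken from RefSeq's annotation of GRCm38.p6. Windows were available for 8 of the 9 genes and 9 in all, since Cald1 had 2 starts. They include the window of Cnn1, and none was given for Tagln. The CArG box was found in 2 of 9 windows, those of Cnn2 and Myl9, and in 1.63% of all 32851 windows of this length. A stretch that differs from it by 1 base was found in 5 of 9 windows, those of Acta2, Tpm1, Flna and Myl9 and 1 of Cald1, and in 19.9% of all windows. This looser form was added after the sequence of Acta2 had been read, so that nothing is read from its count. The CArG box is symmetric, so that both strands are covered. CAGAC, the SMAD-binding letters, was found on either strand in 4 of 9 windows, those of Acta2 and Cnn1 and both of Cald1 (49.6% of all), CATTCC, the letters bound by TEAD factors, in 4 of 9, those of Acta2, Tpm1, Flna and 1 of Cald1 (14.7% of all), and TATAAA in 1 of 9 (13.6% of all). None of the motifs overlapped a CArG box in the windows printed, and a match describes letters and is neither a binding site nor a cause of a change.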

How the data were processed

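mRNA of 32 wells was measured by BRB-seq. The authors deposited raw counts per gene, whole numbers without normalization. Per the submitters' processing notes, STAR 2.7.10b, featureCounts and GRCm39 (mm39) were used, and DESeq2 1.36.0 for the study's own tests. The annotation, the strand setting and the use of unique molecular identifiers are not given in the sources used here, so that PCR duplicates and reads shared between related genes, such as the actins, stand as the authors counted them. Reads are 3′ tags, and levels are not compared between genes.

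Identifiers were matched to symbols with GENCODE M21 (12437 of 12451). Totals were 654539 to 1455074 counts per well, and 3 counts were taken as the floor of detection. Genes passing filterByExpr (9137 at 4 hrs, 8971 at 12 hrs, 9332 over all wells) were TMM-normalized and tested with edgeR 4.0.16 (glmQLFit, glmQLFTest) in R 4.3.3 over the 16 wells of a time, or over all 32 for contrasts between times. P-values were two-sided and adjusted by the Benjamini-Hochberg method over all genes tested, and genes with an adjusted p under 0.05 were called. Likeness used log2 CPM with a prior count of 2. The genes, the lists of other genes and the comparisons were chosen with earlier results of these data known. Members were named in every comparison, other listed genes where called, up to 6 per list by absolute log2 fold change, and 5 genes by likeness to Acta2, while some listed genes are not reported here. Alternatives were DESeq2 1.42.0 (Wald test), RLE, no TMM, other filters and samples per fit, an adjusted p under 0.01, a prior count of 0.5, a replicate block and leaving out each well. Over 112 pairs of same-numbered wells the mean correlation of deviations from group means was -0.000234, so the numbers were not treated as pairs. On simulated counts of Activin-A against untreated at 12 hrs (8852 genes), edgeR found 100 of 102 genes changed 2-fold, 68 of 98 changed 1.5-fold and 8 unchanged genes. Some 1.5-fold changes were thus missed, and smaller changes were not simulated. Python 3.11.15 read sequences and drew plots. Promoters are RefSeq's on GRCm38.p6, and no coordinates were converted between builds.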

Additional observations from a re-analysis of the deposited data

Results flagged for a closer look

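Among 64 sets of 4 wells (8 genes in 8 groups) screened for a well far from the others, 3 had one, where chance gives about 1 in 20. Tagln in replicate 4 of both factors at 4 hrs stood at 7.22 CPM against 1.9 to 2.56 CPM in the other wells, with a gap of 0.876 of the group's range, and rests on 8 counts. Cald1 in replicate 1 of both factors at 12 hrs stood at 319.6 CPM against 263.4 to 271.1 CPM (0.863 of the range). Flna in replicate 4 of Activin-A at 12 hrs stood at 958.9 CPM against 985.6 to 986.8 CPM (0.957 of the range). The effect of Activin-A on Acta2 differed between 12 hrs and 4 hrs by 0.495 on the log2 scale without IFN-γ and by 0.738 with it, in edgeR's test of the difference itself (adjusted p = 0.00751 and 1.51e-07).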

How the results depend on the processing

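All 29 calls of single genes of the set kept their direction and stayed called under DESeq2, RLE, library totals without TMM, no filter, at least 10 counts in every well and the replicate block, and the 18 of them within a time point did so also with all 32 or only the 8 compared wells in the fit. No replicate block changed a call. Leaving out 1 well at a time gave 242 calls kept and 6 lost, those named in the report for Acta2, Flna and Tpm1.

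Of genes not called, the direction turned with library totals without TMM for Acta2 with both factors against Activin-A at 4 hrs (-0.0013) and Flna with IFN-γ at 12 hrs (-0.0387), and without a filter for the interaction of Acta2 at 4 hrs (0.0042). Leaving out wells turned it within these ranges on the log2 scale. With IFN-γ at 4 hrs they were -0.0694 to 0.0152 for Tpm2 and -0.0066 to 0.0881 for Flna, and at 12 hrs -0.0243 to 0.0341 for Flna. They were -0.0777 to 0.019 for Flna with both factors against Activin-A at 4 hrs and -0.107 to 0.0090 for Tpm2 with both against IFN-γ at 12 hrs. For the interaction they were -0.0673 to 0.0329 for Acta2 and -0.0149 to 0.0484 for Tpm1 at 4 hrs, and -0.0266 to 0.0436 for Tpm1 and -0.0175 to 0.0955 for Tpm2 at 12 hrs. Between the times they were -0.113 to 0.805 for Tagln in untreated cells, -0.226 to 0.242 for Tagln with Activin-A, -0.0030 to 0.0861 for Tpm2 and -0.0355 to 0.0832 for Cald1 with IFN-γ, and -0.0715 to 0.0041 for Tpm1 with both factors. For the difference of effects between the times they were -0.814 to 0.106 for Tagln under Activin-A, and -0.105 to 0.0091 for Cald1 and -0.0773 to 0.0184 for Flna under IFN-γ.

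Counts over all genes fell with an adjusted p under 0.01 or with DESeq2. Activin-A at 4 hrs called 150 genes, 86 at the stricter threshold and 92 with DESeq2, and at 12 hrs 216 and 140 with DESeq2. Both factors against IFN-γ at 4 hrs called 74, then 40 and 46, and 120 with only the 8 wells compared (47 to 72 without 1 well), and at 12 hrs 92, then 51 and 59. Both against Activin-A at 12 hrs called 863, then 558 and 569. The interaction called 0 genes at 4 hrs, 1 without a filter and 1 with all 32 wells (0 to 1 without 1 well), and 1 at 12 hrs, then 0 and 0, 2 without TMM and 8 without a filter (0 to 6 without 1 well). Between the times the counts were 457, 234 and 295 in untreated cells (302 to 374 without 1 well), 650, 359 and 423 with Activin-A, 785, 434 and 514 with IFN-γ, and 663 and 361 with both. The effect of Activin-A differed between the times for 2 genes, 1 at the stricter threshold (0 to 3 without 1 well), and with IFN-γ for 9, then 3 and 5 (3 to 18 without 1 well). That of IFN-γ did for 54, then 32 (35 to 54 without 1 well).

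Of the genes of the set, both factors against Activin-A at 4 hrs called 1 (Cnn2), then 2 without a filter (also Tagln) and 3 with all 32 wells (also Cald1 and Tagln) (1 to 2 without 1 well). The untreated cells between the times called 0, and 1 (Cnn2) with at least 10 counts in every well (0 to 1 without 1 well), and IFN-γ cells called 2, and 1 at the stricter threshold (1 to 4 without 1 well). The effect differences called 0 to 1 for Activin-A and 0 to 1 for IFN-γ without 1 well. Of the 5 genes most like Acta2, 1 remained when r was taken over 32 wells. The causes of these changes were not tested.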
